A study of Mus musculus with 6 samples.

Results

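The transcripts of sterol and fatty acid synthesis were followed in activated B cells of *Tent5c* KO and WT mice through 8 genes: the transcription factor genes *Srebf1* and *Srebf2*, the sterol pathway genes *Hmgcs1*, *Idi1*, *Fdft1* and *Sqle*, and the fatty acid genes *Fasn* and *Scd2*. They were chosen by name, in view of the growth of membranes in cells that secrete antibody, and not by a threshold on any value. The deposited values list 54446 genes, and all 8 were among the 12322 genes tested, whose mean over the 6 libraries reached 10 normalized counts. A normalized count is the number of fragments on a gene divided by the size factor of its library. In these 8 genes no difference between the genotypes passed the test, log2 fold changes lay between −0.05 and 0.23, and 7 of the 8 genes had their lowest level in the same WT library, as did 21.9% of all genes tested.

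Naive B cells were taken from spleens of mice of a mixed C57BL/6J X CBA background, 12 to 15 weeks old, of the genotype TENT5C KO (3 mice) or WT (3 mice). TENT5C is a cytoplasmic poly(A) polymerase, and the KO allele was carried through the germline, so that it was present in every cell of the donors. Each of the 3 replicates was 1 KO and 1 WT littermate from heterozygous matings, is the batch in the labels, and is called a pair here. Cells of both genotypes received IL-4 at 20 ng/ml together with LPS at 20 µg/ml for 7 days, so that no library shows resting cells, and total RNA depleted of rRNA was sequenced by strand. The libraries are named by their label and pair as KO 1, KO 2, KO 3, WT 1, WT 2 and WT 3.

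Depth lay between 5393558 and 6793520 fragments on genes per library (median 6607728.5), and WT 3 was the shallowest. *Tent5c* itself had 1993, 993 and 1170 normalized counts in KO 1, KO 2 and KO 3 and 1255, 767 and 1585 in WT 1, WT 2 and WT 3. The transcript was thus not lower in the libraries labelled KO, and every direction given here rests on the labels. The 10 B cell markers (*Cd79a*, *Cd79b* and others) summed to between 54346 and 63543 normalized counts. Of 10 plasma cell markers, 9 had a mean of at least 10, and their sum ranged from 10775 to 18934 in libraries labelled KO and from 10613 to 22261 in those labelled WT. Of the markers of other cells, 1 of 10 T cell genes (summed level 29.5 to 54.5 in KO and 29.3 to 96.3 in WT), 3 of 10 myeloid genes (69.6 to 163 in KO and 119 to 167 in WT) and 0 of 7 erythroid genes (0.908 to 4.72 in KO and 0 to 1.89 in WT) reached that mean, and *S100a8*, *S100a9*, *Hba-a1*, *Hba-a2*, *Hbb-bs* and *Slc4a1* were among those at 0 in every library.

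Cells build cholesterol from acetyl-CoA through the mevalonate pathway and build fatty acids from acetyl-CoA through malonyl-CoA. Both routes are switched on by sterol regulatory element-binding proteins (SREBPs), which are held in the endoplasmic reticulum (ER) with SCAP and INSIG proteins while sterols are plentiful and are cut free in the Golgi when sterols fall. The freed factor binds sterol regulatory elements in promoters, often beside a site of the factor NF-Y. B cells that become antibody-secreting cells expand their ER, and the membranes of both dividing and secreting cells need sterols, fatty acids and phospholipids.

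The promoters of *Hmgcs1*, *Idi1* and *Fasn* are shown because they belong to sterol enzymes that varied together among the libraries (*Hmgcs1* and *Idi1*) and to the gene that did not vary with them (*Fasn*). RefSeq promoter windows (GRCm38.p6), each from 250 bases before to 50 bases after a transcription start, were found for 5 of the 8 genes, in 7 windows, of which 3 belong to *Srebf1*. *Sqle*, *Fdft1* and *Scd2* had no entry. In the windows below, written 5′ to 3′ on the strand of the gene, capitals mark matches to the sterol regulatory element TCACNCCAC and to the NF-Y box CCAAT, on either strand. The windows lie at chr13:119690101-119690400 on the plus strand (*Hmgcs1*), chr13:8885356-8885655 on the plus strand (*Idi1*) and chr11:120824498-120824797 on the minus strand (*Fasn*).
Hmgcs1: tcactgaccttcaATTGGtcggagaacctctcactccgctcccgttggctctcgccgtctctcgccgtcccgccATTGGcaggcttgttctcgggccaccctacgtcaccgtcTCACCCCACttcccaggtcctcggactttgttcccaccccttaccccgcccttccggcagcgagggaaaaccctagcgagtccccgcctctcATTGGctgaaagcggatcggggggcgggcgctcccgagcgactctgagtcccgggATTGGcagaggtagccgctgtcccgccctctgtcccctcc
Idi1: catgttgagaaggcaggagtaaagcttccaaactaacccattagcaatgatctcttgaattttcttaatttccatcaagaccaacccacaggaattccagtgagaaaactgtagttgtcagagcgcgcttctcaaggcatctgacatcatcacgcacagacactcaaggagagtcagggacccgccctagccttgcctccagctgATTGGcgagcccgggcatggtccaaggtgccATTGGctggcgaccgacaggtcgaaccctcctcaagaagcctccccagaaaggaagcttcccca
Fasn: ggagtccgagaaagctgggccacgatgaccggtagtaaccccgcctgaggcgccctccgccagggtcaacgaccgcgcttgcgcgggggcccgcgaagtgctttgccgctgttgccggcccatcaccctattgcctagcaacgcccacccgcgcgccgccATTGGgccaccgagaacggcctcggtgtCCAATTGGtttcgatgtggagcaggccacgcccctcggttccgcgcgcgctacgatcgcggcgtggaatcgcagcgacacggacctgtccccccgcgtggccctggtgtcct

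The sterol regulatory element was matched at 1 place in these windows, in *Hmgcs1*, where its first base is base 114 of the window, 137 bases before the start. With the neighbouring bases this site reads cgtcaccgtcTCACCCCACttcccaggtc (chr13:119690204-119690232, plus strand). Of all 32851 windows, 1.24% held these letters, and of the 19 windows of 16 sterol synthesis genes 1 did. The NF-Y box was found in 6 of the 7 windows of the 8 genes, covering all 5 genes with an entry, with 4 matches in *Hmgcs1*, 2 in *Idi1* and 3 in *Fasn*, where 2 of the 3 overlap in CCAATTGG, which holds CCAAT on both strands. It was present in 15 of 19 windows of sterol synthesis genes (78.9%), in 13 of 21 windows of fatty acid synthesis genes (61.9%) and in 37.4% of all windows. The E-box CACGTG, which SREBPs can also bind, was in 0 of the 7 windows, in 3 of the 19 windows of sterol synthesis genes and in 7.15% of all windows. A match is a description of the letters and not of binding, and sites outside these windows were not searched.

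*Srebf2* encodes SREBP2, the main activator of the sterol genes. It had 1462, 1436 and 1482 normalized counts in KO 1, KO 2 and KO 3, and 1348, 1384 and 1215 in WT 1, WT 2 and WT 3. Every KO library lay above every WT library, and *Srebf2* was the only one of the 8 genes for which this held. Over all genes tested, the libraries labelled KO were all above those labelled WT in 3.39% and all below in 3.44%. The group means were 1460 ± 22.8 in KO and 1316 ± 89.1 in WT (SD, n = 3), for a log2 fold change of 0.15 ± 0.07 (standard error), which did not pass the test (limma adjusted *p* = 0.970). Its 95% interval ran from −0.01 to 0.32, and the value was 0.09 without replicate 3. In bulk RNA, a change in the RNA per cell and a change in the share of cells that hold it cannot be told apart, which applies to every value given here.

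*Srebf1* encodes SREBP1, which acts mostly on fatty acid genes. Its levels were 545, 571 and 557 normalized counts in KO 1, KO 2 and KO 3, and 523, 591 and 489 in WT 1, WT 2 and WT 3. The 3 KO values lay inside the range of the WT values. The log2 fold change was 0.07 ± 0.08 (standard error), with an interval from −0.12 to 0.25. Per kilobase of exon, *Srebf2* exceeded *Srebf1* in all 6 libraries, by a factor of 1.84 to 2.11 (median 2.00). The ratio was 2.11, 1.97 and 2.09 in KO 1, KO 2 and KO 3 and 2.02, 1.84 and 1.95 in WT 1, WT 2 and WT 3, so that the genotypes overlapped.

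*Hmgcs1* encodes the synthase that joins acetyl-CoA and acetoacetyl-CoA to HMG-CoA at the entry of the mevalonate pathway. It was at 2195, 2514 and 2111 normalized counts in KO 1, KO 2 and KO 3 and at 2386, 2200 and 1814 in WT 1, WT 2 and WT 3. KO 2 was highest, WT 3 lowest, and the genotypes overlapped. The log2 KO/WT ratios were −0.12, 0.19 and 0.22 in pairs 1, 2 and 3, for a log2 fold change of 0.10 ± 0.08 (standard error) with an interval from −0.10 to 0.29.

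*Idi1* encodes the isomerase that interconverts the isoprenoid units from which squalene is built, and it was the member with the widest spread among pairs. It had 469, 551 and 502 normalized counts in KO 1, KO 2 and KO 3, and 638, 545 and 414 in WT 1, WT 2 and WT 3. WT 1 was the highest and WT 3 the lowest of all 6 libraries, so the WT values enclosed the KO values. The log2 ratio ran from −0.44 in pair 1 through 0.02 in pair 2 to 0.28 in pair 3. Of the 8 genes it alone had a negative log2 fold change, −0.05 ± 0.14 (standard error, interval −0.37 to 0.27), and without replicate 1 the value was 0.15.

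*Fdft1* encodes squalene synthase, the first enzyme committed to sterols. Its levels were 520, 605 and 505 normalized counts in KO 1, KO 2 and KO 3, and 575, 527 and 423 in WT 1, WT 2 and WT 3. The order of libraries was that of *Hmgcs1*, and over the 6 libraries the log2 values of these 2 genes had a Pearson r of 0.999. The log2 ratios were −0.15, 0.20 and 0.26 in pairs 1, 2 and 3, for a log2 fold change of 0.10 ± 0.10 (standard error, interval −0.13 to 0.34).

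*Sqle* encodes squalene epoxidase, which oxidises squalene in the ER. It was at 1082, 1115 and 1007 normalized counts in KO 1, KO 2 and KO 3 and at 1068, 1118 and 862 in WT 1, WT 2 and WT 3. In pairs 1 and 2 the littermates had nearly the same level, with log2 ratios of 0.02 and −0.0032. In pair 3 the log2 ratio was 0.22, with WT 3 below all other libraries. The log2 fold change was 0.08 ± 0.07 (standard error, interval −0.09 to 0.25).

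*Fasn* encodes fatty acid synthase, which makes palmitate. Its levels were 1909, 2116 and 2236 normalized counts in KO 1, KO 2 and KO 3, and 1899, 2155 and 2011 in WT 1, WT 2 and WT 3. *Fasn* was the only member whose lowest library was not WT 3. Littermates resembled each other in pairs 1 and 2 (log2 ratios 0.0076 and −0.03), with 0.15 in pair 3, and the log2 fold change of 0.04 ± 0.06 (standard error, interval −0.11 to 0.20) became −0.0093 without replicate 3.

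*Scd2* encodes a stearoyl-CoA desaturase, which turns saturated into monounsaturated fatty acids. It had 2716, 3241 and 2628 normalized counts in KO 1, KO 2 and KO 3, and 2688, 2808 and 1899 in WT 1, WT 2 and WT 3. It was higher in the library labelled KO in each of the 3 pairs, as were *Srebf2* and 11.7% of all genes tested, though barely so in pair 1. The log2 ratios were 0.02, 0.21 and 0.47. Its group means were 2862 ± 331 in KO and 2465 ± 494 in WT (SD, n = 3), and its log2 fold change of 0.23 ± 0.09 (standard error, interval 0.0096 to 0.45, a fold of 1.17) was the largest of the 8. It did not pass the test over all genes (limma adjusted *p* = 0.970), and without replicate 3 it was 0.11. *Scd2* was also the only member with an unadjusted limma *p*-value under 0.05, which 4.70% of all genes tested had, 373 lower and 206 higher.

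**Figure D1:**
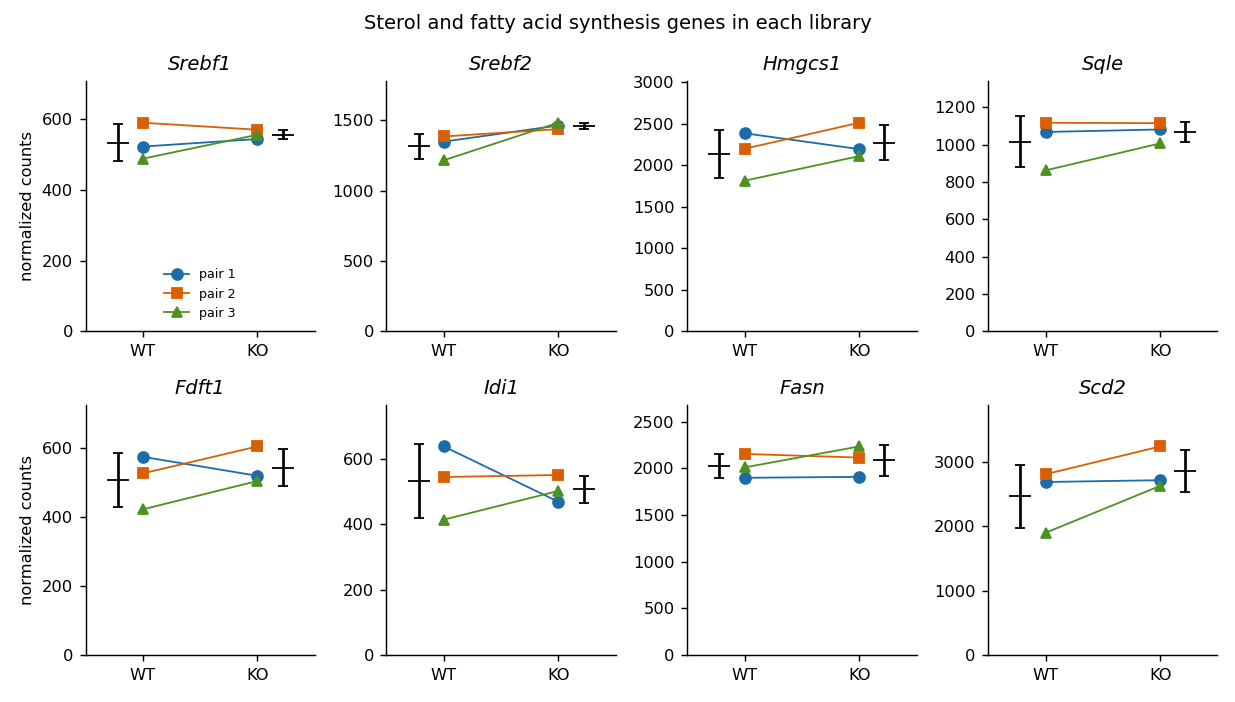
Normalized counts (y axis, from 0) of the 8 genes in the WT and KO library of each littermate pair, joined by a line, with the mean and SD (n = 3) of each genotype as black bars. In 7 of the 8 panels the WT library of pair 3 is the lowest point, *Fasn* being the exception.

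Between the genotypes, 0 of the 8 genes passed an adjusted *p* of 0.05 in limma, as did 0% of the 12322 genes tested, for which the smallest adjusted *p* was 0.653. edgeR's quasi-likelihood test also called 0 genes, and 368 genes were lower and 200 higher at a *p* under 0.05 with no adjustment. DESeq2, the test the study used, called 0.232% of the 9894 genes to which it gave an adjusted *p*, and 0 of the 8. The adjusted *p* of the 8 genes lay between 0.970 and 0.987 in limma and at 1.00 in DESeq2. The limma intervals of the 8 genes were computed gene by gene, with no adjustment for the number of genes. They therefore do not bound the differences that remain possible. Their lower ends were folds between 0.771 (*Idi1*) and 1.01 (*Scd2*), and their upper ends were folds between 1.15 (*Fasn*) and 1.37 (*Scd2*). The lower end of 1.01 does not make *Scd2* a called gene, since its adjusted *p* was 0.970 in limma.

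Direction was described by pair. The median log2 fold change of the 8 genes was 0.09, with 7 positive and 1 negative, beside a median of 0.00067 and quartiles of −0.09 and 0.09 over all genes tested. By pair, the median log2 ratio of the 8 genes came to 0.01, 0.03 and 0.24 in pairs 1, 2 and 3. The library labelled KO was the higher for 5 of the 8 genes in pair 1, 5 in pair 2 and 8 in pair 3, against 46.8%, 50% and 50.4% of all genes. Higher in all 3 pairs were 2 of the 8 genes (11.7% of all genes tested), and lower in all 3 pairs were 0 (13.1%). WT 3 was the lowest library for 7 of the 8 genes, so leaving it out alone had to lower their log2 fold changes. Such a fit cannot show whether the direction of the median depended on WT 3. With WT 3 left out and no pairing in the model, the median of the 8 genes was −0.0060. In that fit, which kept KO 3 without its littermate, *Hmgcs1* (−0.015), *Sqle* (−0.034) and *Fdft1* (−0.023) changed sign. *Srebf2* (0.096), *Scd2* (0.053), *Fasn* (0.042) and *Srebf1* (0.0034) stayed positive, and *Idi1* (−0.22) stayed negative. Without replicates 1, 2 and 3 in turn the median was 0.16, 0.10 and 0.02, so that it stayed positive. Without replicate 3 the log2 fold change of *Srebf1* was 0.0043, that of *Hmgcs1* 0.04, that of *Fdft1* 0.03 and that of *Sqle* 0.0074.

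**Figure D2:**
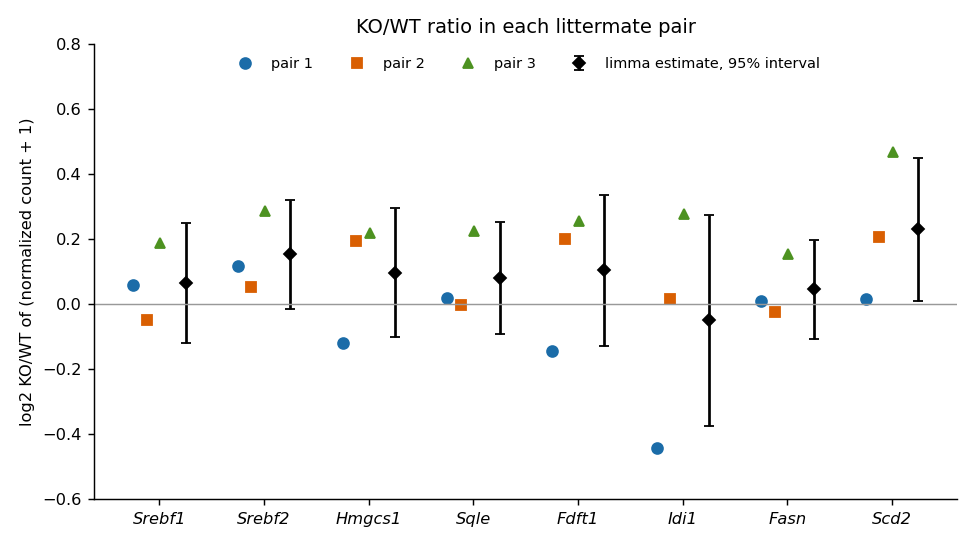
Log2 KO/WT ratio of (normalized count + 1) in each of the 3 littermate pairs (coloured points) and the limma estimate with its 95% interval (black) for the 8 genes. The pair 3 ratio is the highest for every gene, between 0.15 and 0.47, and the interval of 7 genes includes 0, that of *Scd2* reaching down to 0.0096.

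The spread of the 8 genes among libraries, which come from separate animals, differed by gene. The coefficient of variation over the 6 libraries lay between 6.62% (*Srebf1*) and 16.3% (*Scd2*), and counting error alone, in the library with the fewest fragments, was between 2.45% (*Fasn*) and 5.39% (*Idi1*). The smallest number of fragments behind any value was 344, for *Idi1*. The ratio of the highest to the lowest library ran from 1.18 for *Fasn* to 1.71 for *Scd2*.

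The same libraries stood low and high for most of the 8. All 8 genes were below their own mean over the 6 libraries in WT 3 (49.2% of all genes tested were) and above it in KO 2 (50.8% of all genes). The median log2 deviation of the 8 genes from that mean was −0.27 in WT 3 and 0.10 in KO 2, and between −0.02 and 0.08 in the other libraries. WT 3 was the lowest library for 7 of the 8 genes, which it was for 21.9% of all genes, and KO 2 was the highest for 3 of the 8, which it was for 19.0% of all genes. WT 3 was also the highest library for 2848 of the 12322 genes tested, and for 0 of the 8. The log2 values of pairs of members without *Fasn* (21 pairs) correlated with a median Pearson r of 0.796 (0.337 to 0.999), and those of *Fasn* with the other 7 with a median of 0.0554 (−0.0567 to 0.562). These correlations are over 6 libraries, which share pairs and a range of depth, and are a description.

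The 3 batches, which are the pairs, were compared in the same limma fit. An F test over the batch terms called 142 genes, 1.15% of those tested, and 0 of the 8. *Scd2* came nearest, with means of 2702, 3025 and 2263 normalized counts in pairs 1, 2 and 3 and an adjusted *p* of 0.286 (limma). Without replicate 1 that adjusted *p* was 0.0400 (limma), in a comparison of pairs 2 and 3 that called 329 of all genes tested. The other 7 genes had adjusted *p*-values between 0.400 (*Sqle*) and 0.882 (*Srebf2*).

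Other properties of the libraries also differed in WT 3 and KO 2. The 10 B cell markers had median log2 deviations of −0.09, 0.0082 and 0.11 in KO 1, KO 2 and KO 3 and 0.04, 0.11 and −0.12 in WT 1, WT 2 and WT 3. In WT 3 they were thus low along with the 8 genes, with 8 of 10 below their mean and 5 of 10 at their lowest. In KO 1, where the 8 genes were not low, 8 of 10 B cell markers were also below their mean and 3 of 10 at their lowest. The 9 plasma cell markers tested, such as *Sdc1*, *Prdm1* and *Xbp1*, had median log2 deviations of 0.41, −0.41 and 0.02 in KO 1, KO 2 and KO 3 and −0.0079, −0.47 and 0.46 in WT 1, WT 2 and WT 3. They were thus highest in WT 3, where the 8 genes were lowest. Immunoglobulin (Ig) genes took 2.09%, 1.03% and 1.54% of the fragments in KO 1, KO 2 and KO 3 and 2.52%, 1.52% and 3.31% in WT 1, WT 2 and WT 3, with the highest share in WT 3 and the lowest in KO 2. *Hspa5*, which encodes the ER chaperone BiP, followed the same order at its ends, with 14369 normalized counts in WT 3 and 7608 in KO 2. *Hspa5* had 10252, 7608 and 9625 in KO 1, KO 2 and KO 3 and 12347, 9509 and 14369 in WT 1, WT 2 and WT 3. Both the Ig share and *Hspa5* were thus lower in the library labelled KO in each pair. Of all genes tested, 13.1% were lower in all 3 pairs. The summed T cell markers, low in every library, were also highest in WT 3, at 96.3 against 29.3 to 54.5 in the others. The summed myeloid markers were at 167 in WT 3 against 69.6 to 163. KO 1, with plasma cell markers nearly as high as WT 3, did not share the low level of the 8 genes, its median deviation being 0.0007. The part of the makeup of the cultures, of the lower depth of WT 3 or of the pair in the level of the 8 genes was not tested.

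**Figure D3:**
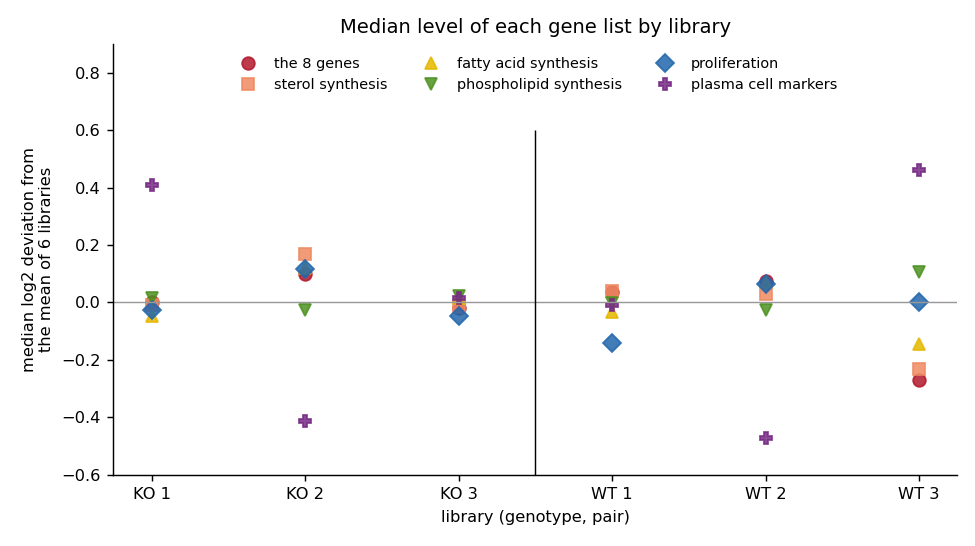
Median log2 deviation from the mean of the 6 libraries (y axis) for the 8 genes and for 5 gene lists, in each library (x axis). In WT 3 the 8 genes (−0.27) and the sterol (−0.23) and fatty acid (−0.15) lists are at their lowest and the plasma cell markers (0.46) at their highest, while in KO 2 the 8 genes (0.10) lie above and the plasma cell markers (−0.41) below the line at 0.

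The wider sterol pathway was followed through a list of 21 genes that starts at *Acat2*, 4 of which are among the 8. All 21 were tested and 0 passed in either direction, with 17 positive and 4 negative log2 fold changes and a median of 0.10. The median was 0.04 without replicate 3, and 0.02 with WT 3 left out and no pairing in the model. In all 3 pairs 5 of them were higher and 1 lower. The 3 lowest were *Ggps1* (−0.18), which makes geranylgeranyl diphosphate off the sterol branch, *Ebp* (−0.16), an isomerase of late sterols, and *Idi1* (−0.05). The 3 highest were *Tm7sf2* (0.29), a sterol reductase, *Fdps* (0.26), which makes farnesyl diphosphate, and *Dhcr7* (0.16), which catalyses a last step to cholesterol.

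The same libraries stood at the ends for the wider sterol list. With the 4 shared genes left out, 11 of 17 had their lowest level in WT 3 and 11 of 17 their highest in KO 2, against 21.9% and 19.0% of all genes. Over the 21 genes the median log2 ratios were −0.06, 0.18 and 0.22 in pairs 1, 2 and 3.

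**Figure D4:**
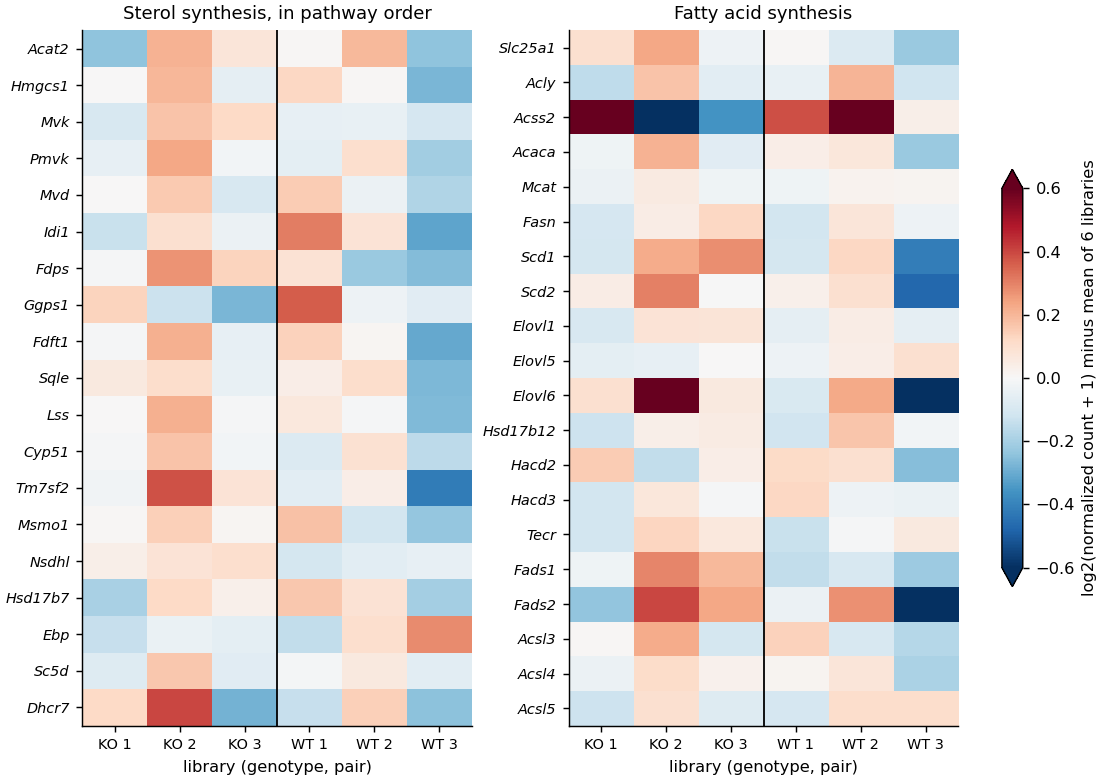
Log2(normalized count + 1) minus its mean over the 6 libraries (colour, limited to 0.6 either way) for 19 sterol and 20 fatty acid synthesis genes (rows) in each library (columns). The WT 3 column is blue for most genes and is the lowest library for 14 of the 19 sterol genes drawn, and the KO 2 column is mostly red.

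Of 23 genes of fatty acid synthesis, elongation, desaturation and activation, 20 were tested and 0 passed, with 13 positive and 7 negative log2 fold changes and a median of 0.05, which was −0.0051 without replicate 3. At an unadjusted *p* under 0.05, 4 were higher (*Scd2*, *Slc25a1*, *Fads1* and *Elovl6*) and 0 lower, against 206 higher and 373 lower of all 12322 genes (4.70% in all). All 4 had their lowest level in WT 3, and *Scd2* is among the 8. They were also higher in the library labelled KO in each of the 3 pairs. Of the 20 genes, 6 were higher in all 3 pairs and 2 lower, against 11.7% and 13.1% of all genes. For *Fads1* every KO library lay above every WT library, as for 3.39% of all genes. WT 3 was the lowest library for 10 of the 20 and KO 2 the highest for 11, against 21.9% and 19.0% of all genes. The 20 include *Fasn* and *Scd2*. The 3 highest were *Elovl6* (0.51), which elongates palmitate, *Fads1* (0.31), a desaturase of polyunsaturated fatty acids, and *Scd1* (0.27). The 3 lowest were *Acss2* (−0.75), which makes acetyl-CoA from acetate, *Acsl5* (−0.07), which activates fatty acids, and *Elovl5* (−0.07). *Acss2* rested on 46.2, 10.5 and 22.7 normalized counts in KO 1, KO 2 and KO 3 and 38.7, 48.1 and 30.1 in WT 1, WT 2 and WT 3, and was the most variable gene of the list. *Elovl6* had 75.5, 108 and 73.5 in KO 1, KO 2 and KO 3 and 66.1, 82.6 and 37.3 in WT 1, WT 2 and WT 3, with WT 3 again at the bottom. *Me1*, *Acacb* and *Elovl7* fell under the filter on low values.

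The genes that control SREBPs were centred near 0. All 14 were tested and 0 passed, with 7 positive and 7 negative values, a median log2 fold change of −0.0035 (0.0068 with TMM scaling) and a range from −0.09 (*Scap*) to 0.16 (*Ubxn8*). The 3 lowest were *Scap*, *Mbtps1* (−0.06), the first protease that cuts SREBPs, and *Erlin2* (−0.06). The 3 highest were *Ubxn8*, *Srebf2* (0.15) and *Rnf139* (0.09), an ER ubiquitin ligase. WT 3 was the lowest library for 3 of the 14, 2 of them *Srebf1* and *Srebf2*, a share near the 21.9% of all genes. *Insig1*, itself a target of SREBPs and a retention factor for them, had 1055, 1187 and 890 normalized counts in KO 1, KO 2 and KO 3 and 1094, 1092 and 893 in WT 1, WT 2 and WT 3, and is named after its values were seen. It was low in both libraries of pair 3, not in WT 3 alone.

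Sterol uptake, storage and efflux were covered by 14 genes, of which 10 were tested and 0 passed (median log2 fold change 0.00056). The 3 lowest were *Npc1* (−0.37) and *Npc2* (−0.20), which bring cholesterol out of lysosomes, and *Soat1* (−0.08), which esterifies it. *Npc1* had 147, 184 and 139 normalized counts in KO 1, KO 2 and KO 3 and 166, 244 and 203 in WT 1, WT 2 and WT 3, so that it was lower in the library labelled KO in each pair while the groups overlapped. *Npc2*, at 1075, 1102 and 1100 in KO and 1261, 1102 and 1415 in WT, had its groups apart by less than 1 normalized count. Among the highest were *Scarb1* (0.23), a receptor for high-density lipoprotein, and *Abcg1* (0.12), a sterol exporter. Of the 4 genes under the filter, *Ch25h* and *Cyp7b1* were at 0 in all libraries.

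Phospholipid synthesis, the other need of a growing membrane, was covered by 26 genes. Of these 24 were tested and 0 passed, with 11 positive and 13 negative log2 fold changes and a median of −0.01. The 3 highest were *Chka* (0.27), which phosphorylates choline, *Agpat2* (0.26), an acyltransferase of phosphatidic acid synthesis, and *Ptdss2* (0.20), a phosphatidylserine synthase. *Agpat2* had a log2 ratio of −0.31 in pair 3, and its WT values (31.4 to 89.1 normalized counts) enclosed its KO values. The 3 lowest were *Pcyt1b* (−0.42), *Chkb* (−0.26) and *Gpam* (−0.22). Low counts lay behind *Pcyt1b* (8.49 to 23.0 over the 6 libraries, interval −1.21 to 0.37) and *Chkb* (25.5 to 42.1). WT 3 was the lowest library for 2 of the 24 and the highest for 8, against 2704 and 2848 of all 12322 genes tested. The median log2 deviation of the phospholipid genes in WT 3 was 0.11.  *Cds1* and *Pemt* fell under the filter.

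Markers of proliferation, a sign of dividing cells, were set beside the 8 genes as well. Of 15 such genes, including *Mki67* and *Top2a*, 0 passed, 11 had a positive log2 fold change, and the median was 0.06. KO 2 was the highest library for 11 of the 15 (19.0% of all genes tested), as for the sterol genes. WT 3 was the lowest for 1 (21.9% of all genes) and WT 1 for 7 (1694 of all 12322 genes). The median deviation in WT 3 was 0.0002.

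**Figure D5:**
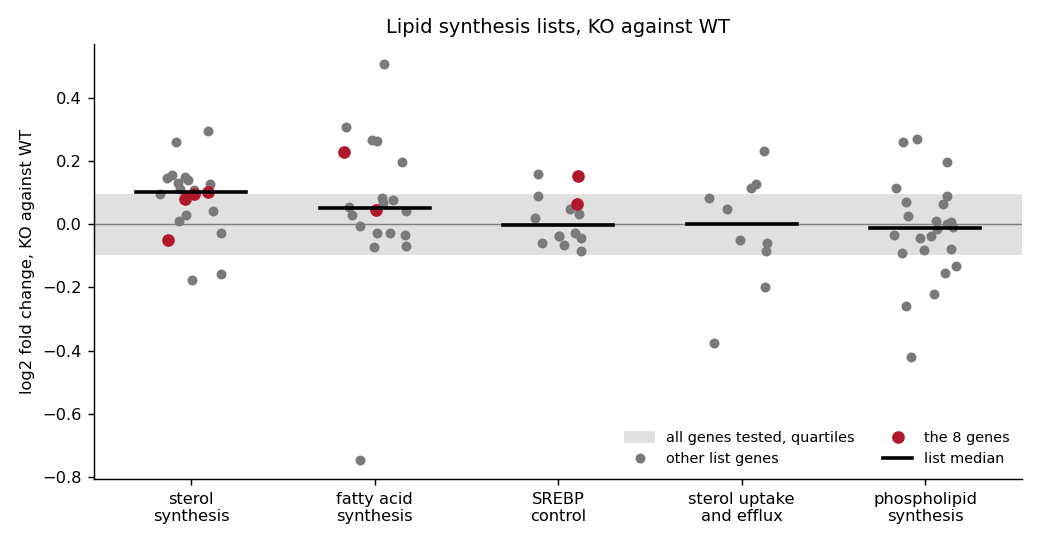
Log2 fold change, libraries labelled KO against WT, of each tested gene in 5 lists (grey points, the 8 genes in red), with the median of the list (black line) and the quartiles of all genes tested (grey band, −0.09 to 0.09). The sterol list has its median at 0.10, just above the band, and at 0.04 without replicate 3, and the other medians lie inside the band.

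The genes whose levels over the 6 libraries were most like the mean standardized level of the 8 genes were found by Pearson r. The 10 nearest, with r between 0.987 and 0.995, were *Nfat5*, *Pla2g4c*, *Rps23*, *Mfsd4b4*, *Dcp1b*, *Arpc2*, *Ubxn7*, *Gm19427*, *Acsl4* and *Rad54b*. *Nfat5*, a transcription factor of the response to osmotic stress and the nearest of all, had 908, 992 and 912 normalized counts in KO 1, KO 2 and KO 3 and 928, 964 and 749 in WT 1, WT 2 and WT 3. The 5 most opposite, with r between −0.985 and −0.994, were *Lilrb4a*, *Pla2g6*, *Ogfr*, *Copb1* and *Gnptg*. *Lilrb4a*, an inhibitory receptor, had 259, 196 and 244 normalized counts in KO 1, KO 2 and KO 3 and 260, 212 and 491 in WT 1, WT 2 and WT 3. With WT 3 left out, r over the other 5 libraries lay between 0.899 and 0.988 for the 10 and between −0.892 and −0.958 for the 5. Both sets were picked by r over libraries that include these 5, so these values cannot show whether the likeness depends on WT 3. An r above 0.9 was found for 272 of the 12322 genes (2.21%), for 3 of 17 other sterol genes, for 4 of 18 other fatty acid genes, and for 0 of 12 other SREBP control genes, 0 of 10 uptake and efflux genes and 0 of 24 phospholipid genes.

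Levels were compared between genes per kilobase of annotated exon, as the mean over the 6 libraries. *Scd2* (487 normalized counts per kilobase) and *Hmgcs1* (480) stood highest, followed by *Srebf2* (193), *Sqle* (188), *Fasn* (188), *Idi1* (148), *Fdft1* (124) and *Srebf1* (96.9). Of the neighbours in this order, *Hmgcs1* and *Srebf2* alone had ranges over the libraries that did not overlap. *Srebf2*, *Sqle* and *Fasn* could not be ordered, since *Srebf2* was above *Sqle* in 3 of 6 libraries and *Sqle* above *Fasn* in 4 of 6. *Idi1* and *Fdft1* had overlapping ranges, but *Idi1* was the higher in each of the 6 libraries. That order rests on the exon lengths, 3505 bases for *Idi1* and 4227 for *Fdft1*, since the mean normalized counts were 520 and 526. The lengths join the exons of all annotated transcripts of a gene, and which transcripts were present was not tested. *Scd2* and *Scd1*, the close relatives with the same reaction, were at similar levels, with a ratio between 0.797 and 1.08 that exceeded 1 in 3 of 6 libraries. *Fasn* exceeded *Acaca*, which makes its substrate malonyl-CoA, by a factor of 3.41 to 4.37, and *Insig1* exceeded *Insig2* by 8.01 to 12.2. These 3 ratios were chosen after the values were seen.

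On GRCm38, the 8 genes lie apart from each other. *Srebf1* (ENSMUSG00000020538) and *Fasn* (ENSMUSG00000025153) are on the minus strand of chromosome 11, at chr11:60199089-60222581 and chr11:120805846-120824547. *Idi1* (ENSMUSG00000058258) and *Hmgcs1* (ENSMUSG00000093930) are on the plus strand of chromosome 13, at chr13:8885501-8892451 and chr13:119690379-119708260. *Sqle* (ENSMUSG00000022351) and *Srebf2* (ENSMUSG00000022463) are on the plus strand of chromosome 15, at chr15:59315077-59331192 and chr15:82147181-82205379. *Fdft1* (ENSMUSG00000021273) is on the minus strand at chr14:63145150-63179578 and *Scd2* (ENSMUSG00000025203) on the plus strand at chr19:44293674-44306864. Exons on the same strand are shared with microRNA genes in *Srebf1* (66 bases, *Mir6922*) and *Scd2* (61 bases, *Mir5114*), about 1.17% and 1.12% of their exon length. *Fdft1* shares 774 exon bases with *Ctsb*, *Hmgcs1* 557 with *Gm48342*, *Idi1* 323 with *Gm48574* and *Srebf1* 109 with *Rai1*, all on the other strand, which the strand-specific counting keeps apart.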

How the data were processed

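RNA of 3 KO and 3 WT B cell cultures was measured, and each sample was placed by the genotype and batch in its labels. The authors aligned reads with STAR 2.6.1a to GRCm38, counted strand-specific pairs on Gencode vM19 exons with featureCounts (Subread 1.6.3, mapping quality of at least 10), and scaled each library with DESeq2. The deposited signal is thus in normalized counts, which cannot show a change common to most transcripts. All values (100%) were whole multiples of 1 step per library within 0.01, which gave back the fragments. A gene at 0 may hide up to 3 fragments, which is 2.72 to 3.61 normalized counts, and such limits cover counting error only. Symbols, positions and exon lengths came from Gencode vM21, which matched 54409 of 54446 identifiers.

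The test was limma 3.58.1 (R 4.3.3, with a trended eBayes) applied to log2(normalized count + 1), on which fold changes of low genes are understated. It was two-sided, had terms for genotype and batch, and ran over the 12322 genes that reached a mean of 10. *P*-values were adjusted by Benjamini-Hochberg and called at 0.05. A term for batch was kept because littermates are pairs, whose deviations from the group means correlated at 0.328, 0.685 and 0.170 over genes. The script was tested on simulated data. edgeR 4.0.16 and DESeq2 1.42.0 on the recovered fragments, other pseudocounts, filters and scalings, the fit without batch and fits without each replicate were alternatives. The fit without WT replicate 3, and other scalings of the counts of genes lowest or highest in a library, were added after seeing the data. The 8 genes, the lists and the markers were chosen with earlier results of these data known. Named genes were the 8, the 3 lowest and 3 highest log2 fold changes of each lipid list, the 10 genes most like the 8 and the 5 most opposite, *Tent5c* and *Hspa5*. *Insig1*, *Slc25a1* and the genes in ratios were named after their values were seen, and *Mki67* and *Top2a* are examples of their list. Some genes of the lists are counted but not reported here by name.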

Additional observations from a re-analysis of the deposited data

How the results depend on the processing

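The adjusted *p* of the 8 genes between genotypes stayed over 0.05 in each of the 13 alternatives, the lowest being 0.202 (*Scd2* without replicate 1). The number of all genes called went from 0 to 22 lower and 1 higher in DESeq2, and leaving out 1 replicate gave 0 to 168 lower and 0 to 3 higher. Genes called between batches numbered 142, 51 with no filter, 247 in DESeq2 and 5 to 728 with 1 replicate left out, and the 8 genes among them 0 to 1 (*Scd2*, without replicate 1). Without the replicate block, the median log2 fold change of the 8 genes was 0.09, as with it, and the block changed no call of the 8 genes or the lists. The median of the SREBP control genes, −0.0035, was 0.0068 with TMM scaling, 0.0094 with quantile normalization, 0.015 with WT replicate 3 left out and no replicate block, and −0.032 to 0.0033 with 1 replicate left out. The sterol median was 0.04 and the fatty acid median −0.0051 without replicate 3. With WT replicate 3 left out and no replicate block, *Hmgcs1* was at −0.015, *Sqle* at −0.034 and *Fdft1* at −0.023. With 1 replicate left out, *Idi1* ranged from −0.21 to 0.15, *Fasn* from −0.0093 to 0.080 and *Tent5c* from −0.033 to 0.52. *Hspa5* passed the test between genotypes in DESeq2 alone (−0.39, adjusted *p* = 0.0306). The count of the 8 genes lowest in WT 3 was 7 with TMM scaling and with quantile normalization. No scaling moved the median of all genes by more than 0.02. The cause of these changes was not tested. At least 344 fragments lay behind each value of the 8 genes, and each comparison rests on 3 pairs.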
